A study of Mus musculus with 12 samples.

Results

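The kidney response to angiotensin II (ANG II) was examined in mice that lack the AT1A receptor, by comparing the 3 arrays of infused receptor-deficient kidneys (KO ANG II) with the 3 arrays of untreated receptor-deficient kidneys (KO baseline). These 6 arrays were all that the labels assign to this genotype, out of 12 arrays in the study, and no measured value was used to choose them. Each array carried total RNA from a snap-frozen kidney of a separate male mouse, 2.5 months old, of the cross F1 (C57BL6 X 129/SvEv), kept on what the labels call NS diet. Infused mice received ANG II at 1 ug/kg/min for 2 days. Every mouse of both KO groups, the controls included, was deficient in the AT1A receptor, and the labels name no cell type, promoter or tissue to which the deficiency was restricted. The other 6 arrays came from wild-type (WT) mice of the same sex, age and cross, 3 at baseline (WT baseline) and 3 after the same infusion (WT ANG II).

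In the renin-angiotensin system, angiotensin II is the active hormone, which raises blood pressure through vasoconstriction, aldosterone release and salt retention. It acts mainly through the type 1 receptor, a G protein-coupled receptor that in mice is encoded by the genes Agtr1a and Agtr1b, while the type 2 receptor Agtr2 and the Mas1 receptor for shorter angiotensin peptides often oppose it. In the mouse kidney Agtr1a is the predominant form, present in vessels, glomeruli and tubules. A response in these kidneys can therefore pass through other angiotensin receptors, through tissues outside the kidney or through the infusion procedure, and the design does not tell these apart.

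The deposited value of a probe set on an array is a ratio to the median of that probe set across the 12 arrays. A ratio of 1 is the middle of the 12 arrays, values can be compared between arrays for the same gene, and levels of different genes cannot. Whether a marker gene is present or absent in the tissue therefore cannot be read from these values. Log2 changes are given as KO ANG II minus KO baseline with a moderated standard error, n = 3 per group, and calls were made at an adjusted p (Benjamini-Hochberg) under 0.05 over 45037 probe sets (limma). Only "rose" and "fell" are used for called changes. The precision is limited by the 3 arrays per group. Infused array 1, 2 or 3 and baseline array 1, 2 or 3 stand for the KO arrays by the replicate number in their labels.

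The KO baseline arrays and the WT ANG II arrays each stood apart from the other arrays. On the first principal component of all probe sets, with 44.3% of the variance, they lay at -35.6, -42.5 and -31.3, while the KO ANG II arrays lay at -15.1, 4.44 and -2.73 and the WT baseline arrays from -15.0 to 2.86. The WT ANG II arrays lay at the other end, from 39.7 to 59.2. On the second component, with 16.2%, the KO baseline arrays lay at 19.5 to 23.9, the KO ANG II arrays at -28.5 to -12.3 and the WT baseline arrays at -23.8 to -12.5. The KO ANG II and WT baseline arrays thus overlapped on both components and the KO baseline arrays overlapped with neither. Over probe sets, log2 ratios had an SD of 0.222 to 0.262 in the KO baseline arrays and 0.165 to 0.196 in the infused KO arrays. The infused WT arrays had the highest SDs, from 0.268 to 0.342. The difference of 3' and 5' control probe sets of Actb, a sign of relative RNA quality, was -0.0517 to -0.0274 on the log2 scale in the KO baseline arrays and 0.0016 to 0.0345 in the infused KO arrays. It was -0.0253 to 0.0069 in the WT baseline arrays and 0.0747 to 0.150 in the WT ANG II arrays. For Gapdh the KO groups overlapped. The part of these differences in the results was not tested. The 3 KO baseline arrays enter every value of the KO response.

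**Figure D1:**
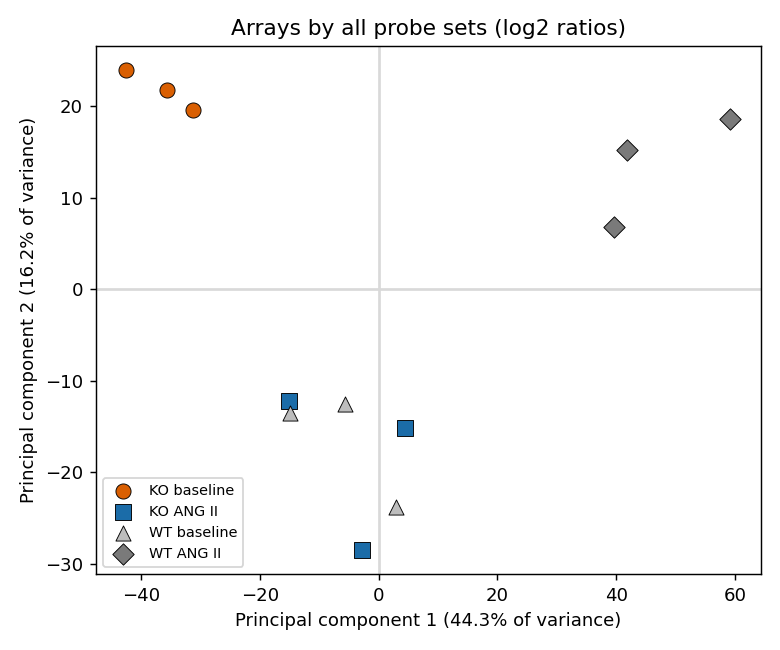
Position of the 12 arrays on the first (44.3% of variance) and second (16.2%) principal component of log2 ratios over all probe sets, with 1 point per array and 3 per group. The 3 KO baseline arrays lie at the upper left, and the 3 WT ANG II arrays at the upper right, both apart from the KO ANG II and WT baseline arrays, which overlap.

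The targeted gene was examined before the response. Agtr1a had ratios of 1.04, 0.923 and 0.965 in the KO baseline arrays and 0.983, 0.917 and 1.05 in the KO ANG II arrays, whereas the WT baseline arrays lay between 1.36 and 1.40. The KO groups overlapped, and the change with the infusion was 0.01 ± 0.08 (limma adjusted p = 0.946). The WT ANG II arrays, at 0.957 to 1.00, overlapped with both KO groups, so the probe set separates the genotypes at baseline and not under infusion. Its position relative to the deletion was not analysed here.

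None of the 11 measured renin-angiotensin genes was called by the probe set that represents it, where 10% of all 18193 genes were. Mme, the peptidase neprilysin, changed by -0.23 by that probe set, and its second probe set fell by 0.56. The other receptors had changes of 0.14 ± 0.11 for Agtr1b (limma adjusted p = 0.457), 0.13 ± 0.11 for Agtr2 (adjusted p = 0.453) and 0.25 ± 0.10 for Mas1 (adjusted p = 0.135). Ace, the converting enzyme, had ratios of 0.975, 0.999 and 1.067 at baseline and 1.247, 1.343 and 1.075 under infusion. The lowest infused array was barely above the highest baseline array, the change was 0.26 ± 0.09 (limma adjusted p = 0.0812), and the gene's second probe set changed by -0.25.

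In all, 4465 of 45037 probe sets (9.91%) changed with the infusion, 1622 upward (3.6%) and 2843 downward (6.31%). Taken as 1 probe set per gene, 779 genes rose (4.28%) and 1042 fell (5.73%). These shares over all genes are the background for each count of list members below. Large changes were mostly falls, since 124 genes fell at least 2-fold (0.682%) and 12 rose as much (0.066%). The arrays of the KO groups did not overlap for 36.4% of genes. The count of changed probe sets dropped from 4465 to 2069 without infused array 3, 2619 without infused array 2, and 2678, 2171 and 2969 without baseline arrays 1, 2 and 3.

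The gene with the largest fall was Igfbp2, a binding protein that holds insulin-like growth factors. Its ratios were 5.96, 5.14 and 2.95 in the KO baseline arrays and 1.03, 1.06 and 0.597 in the KO ANG II arrays. All 3 baseline arrays were above all 3 infused arrays, and the WT baseline arrays lay at 0.911 to 1.27. The largest falls and rises named here were ranked only among called genes whose KO groups did not overlap. In those genes the absence of overlap therefore describes the choice and is not a separate result. For Igfbp2 the values were as follows. The change was -2.37 ± 0.29 on the log2 scale (limma adjusted p = 0.000315). Lcn2, a lipocalin secreted by stressed tubule cells and by neutrophils, stood at 4.04, 3.07 and 2.18 at baseline and at 0.929, 0.682 and 0.405 under infusion. The groups did not overlap, replicate 1 was the highest array in each, and the change was -2.24 ± 0.26 (adjusted p = 0.000216). Cd44, the hyaluronan receptor, had baseline ratios of 4.02, 3.92 and 2.65 against 1.33, 1.05 and 1.02. The change was -1.62 ± 0.20, and 3 of its 4 probe sets fell, while the remaining one changed by 0.17.

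Further genes were among the 15 largest falls without overlap of the KO groups. Smoc2, a matricellular calcium-binding protein, had ratios of 5.64, 4.94 and 2.06 at baseline and 1.53, 0.887 and 0.730 under infusion (-1.95 ± 0.39, limma adjusted p = 0.00754). Inhbb, the beta B chain of activin and inhibin, had ratios of 2.44, 2.14 and 2.46 at baseline and 0.622, 0.667 and 0.768 under infusion. These arrays were tight within groups and did not overlap (-1.78 ± 0.14, adjusted p = 1.76e-05), but only 1 of the gene's 2 probe sets was called. Serpina3n, a protease inhibitor of the acute phase, went from 3.16, 2.53 and 1.76 to 0.760, 0.890 and 0.748 (-1.60 ± 0.17, adjusted p = 0.000114). Cyp24a1, the enzyme that inactivates vitamin D hormones, went from 1.71, 2.54 and 2.13 to 0.529, 0.595 and 1.04 (-1.61 ± 0.39, adjusted p = 0.0198). Its call was lost without infused array 1 or 2 (adjusted p = 0.0559 and 0.0697) or baseline array 2 or 3 (0.078 and 0.0514). Slc7a12, an amino acid transporter with sex-biased kidney expression, went from 2.33, 2.77 and 1.78 to 0.301, 0.548 and 0.702 (-2.21 ± 0.51), a call lost without baseline array 2 (adjusted p = 0.0633). Gsdmc2, a gasdermin, fell by 1.65 on the log2 scale. This call was lost without infused array 2 or 3 (adjusted p = 0.0742 and 0.063) or baseline array 1 or 2 (0.0601 and 0.0914). Quantile normalization ended it as well (0.0879).

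Gatad2b, a subunit of the NuRD chromatin complex, had the smallest p of the large falls. Its ratios were 1.63, 1.76 and 1.56 at baseline and 0.503, 0.586 and 0.530 under infusion (-1.61 ± 0.09, limma adjusted p = 7.7e-07). The groups were far apart, yet only 1 of 5 probe sets of this gene was called, and over the 5 the median change was -0.10 with a range from -1.61 to 0.25. The value therefore describes 1 probe set and not the gene as a whole.

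Rises were led by S100a9 and S100a8, which together form calprotectin, an abundant protein of neutrophils. S100a9 had ratios of 0.579, 0.538 and 0.503 at baseline and 4.60, 1.11 and 1.42 under infusion. infused array 1 was far above the other infused arrays, which were in turn above all baseline arrays (1.84 ± 0.41, limma adjusted p = 0.0125). S100a8 showed the same order, with 0.651, 0.806 and 0.784 against 4.69, 1.06 and 2.20 (1.58 ± 0.44, adjusted p = 0.0371). Its call was lost without infused array 1 or 3 (adjusted p = 0.1 and 0.0932), without baseline array 1, 2 or 3 (0.0984, 0.0871 and 0.076) and without WT baseline array 2 (0.0509). Of the 11 measured neutrophil markers 3 rose (27.3%, beside 4.28% of all genes) and 1, Lcn2, fell (9.09%, beside 5.73%). On leaving out each KO array in turn, 1 to 2 rose. The third rise was that of Mmp8, a neutrophil collagenase, by 0.38, and its call ended in 15 of 20 settings (limma adjusted p up to 0.143). The mean ratio over these markers was 0.960 to 1.13 in the KO baseline arrays and 1.07 to 1.67 in the infused KO arrays, with overlap of the ranges. The median log2 ratio over the markers, on which Lcn2 weighs less, was -0.24 to -0.15 in the KO baseline arrays and -0.03 to 0.12 in the KO ANG II arrays. These ranges did not overlap, and neither did those of the median over all genes.

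Further genes were among the 15 largest rises without overlap of the KO groups. Akr1c18, a steroid dehydrogenase that inactivates progesterone, had ratios of 0.896, 0.770 and 0.833 at baseline and 3.16, 2.35 and 1.99 under infusion (1.56 ± 0.17, limma adjusted p = 0.000154). Odc1, the entry enzyme of polyamine synthesis, had ratios of 0.837, 0.925 and 1.36 at baseline and 2.70, 2.35 and 2.52 under infusion (1.31 ± 0.15, adjusted p = 0.000191), and 3 of 3 probe sets rose. In both genes every infused array was above every baseline array, which the choice of genes required. Sfxn1, a serine carrier of the mitochondrial inner membrane, rose from 0.618, 0.700 and 0.613 to 1.69, 1.49 and 1.52 (1.28 ± 0.10, adjusted p = 1.17e-05), though its second probe set changed by -0.03. Pecr, a peroxisomal enzyme of fatty acid elongation, rose from 0.876, 0.852 and 0.890 to 2.17, 1.54 and 2.00 (1.11 ± 0.11), and both of its probe sets were called.

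Car3, a carbonic anhydrase of fat, muscle and liver, had ratios of 0.750, 0.531 and 0.586 at baseline and 1.40, 1.35 and 1.25 under infusion. The groups did not overlap, which the choice of genes required. For this gene 4 of 4 probe sets rose (1.11 ± 0.17, limma adjusted p = 0.00162). With a variance trend on the mean ratio the call was lost (adjusted p = 0.531). Of 7 measured adipocyte markers Car3 was the only one called (14.3% rose, beside 4.28% of all genes). The mean ratio of these markers was 0.870 to 1.01 in the KO baseline arrays and 0.967 to 1.03 in the KO ANG II arrays. Of 9 measured adrenal cortex markers Akr1c18 and Cyp11b1 rose (22.2%, beside 4.28% of all genes). Cyp11b1 rose by 0.36, in a call lost without infused array 2 or 3, any 1 of the baseline arrays or WT baseline array 3 (limma adjusted p = 0.0521 to 0.148). The list had a mean ratio of 0.860 to 0.918 at baseline and 1.10 to 1.24 under infusion. Its median log2 ratio, on which Akr1c18 weighs less, was -0.26 to -0.14 at baseline and -0.01 to 0.03 under infusion. The median change was 0.13, beside 0.06 over all genes, and the part of such tissue in the rises was not tested. Ccl28, a chemokine of mucosal epithelia, rose from 1.18, 0.983 and 1.71 to 2.59, 2.70 and 3.30 (1.18 ± 0.17, adjusted p = 0.000874), again with 3 of 3 probe sets. The remaining genes of the 15 largest rises without overlap lay between 0.93 and 1.34 and were Smcp, Angptl7, Anxa13, Mtmr7, 3110045C21Rik, Proz and Ugt2a3. The call of Proz was lost without infused array 2 or 3 (adjusted p = 0.0518 and 0.0597).

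**Figure D2:**
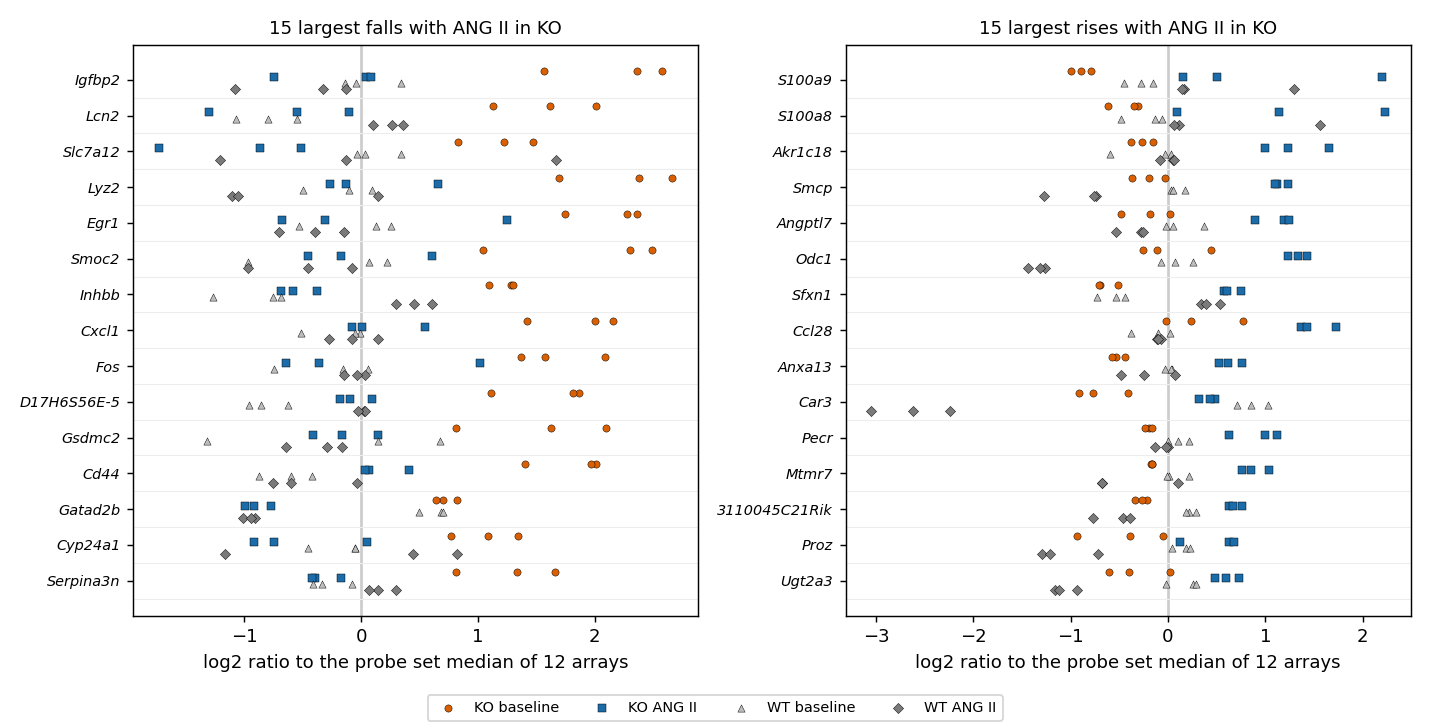
Log2 ratios of the 15 genes with the largest falls (left) and the 15 with the largest rises (right) among called genes whose KO groups did not overlap, with 1 symbol per array and 3 per group. In the left panel the KO baseline arrays (circles) lie to the right of the KO ANG II arrays (squares), and in the right panel S100a9 and S100a8 have 1 KO ANG II array far above the others.

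Immediate early genes, which cells transcribe within minutes of a stimulus, fell in the KO kidneys. Of 35 measured, 18 fell and 3 rose, beside 5.73% and 4.28% of all genes, and the median change was -0.61 against 0.06 over all genes. On leaving out each KO array in turn the number that fell was 16 to 19. Egr1, a zinc finger transcription factor, had ratios of 4.86, 3.36 and 5.14 at baseline and 2.38, 0.624 and 0.806 under infusion (-2.04 ± 0.38, limma adjusted p = 0.00452). Fos, a subunit of the AP-1 factor, had 4.24, 2.98 and 2.58 against 2.02, 0.781 and 0.640 (-1.67 ± 0.33, adjusted p = 0.00714). In both genes infused array 1 was the highest infused array and still below every baseline array. Of the same families Jun fell by -0.91 ± 0.17, Junb by -0.89 ± 0.17 and Egr2 by -1.37 ± 0.25. Egr3 and Egr4 went the other way, as given below.

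Other members of the list fell as follows. Zfp36, which destabilizes cytokine mRNAs, had ratios of 1.81, 1.86 and 1.63 at baseline and 0.880, 0.666 and 0.753 under infusion (-1.21 ± 0.12, limma adjusted p = 7.49e-05). Dusp1, a phosphatase of MAP kinases, had 1.61, 1.48 and 1.54 against 0.847, 0.695 and 0.760 (-1.01 ± 0.11, adjusted p = 0.000112). Neither gene's groups came near to overlapping. Rhob, a small GTPase, fell by 1.11 on the log2 scale, and Ccn2, a matricellular growth factor, by 1.45, from 2.86, 2.45 and 2.18 to 0.821, 1.12 and 0.815. The 3 members that rose did so by less, with Egr3 at 0.38 ± 0.10, Egr4 at 0.29 ± 0.08 and Nr4a2 at 0.40 ± 0.11. Nr4a2 was measured by 6 probe sets, of which 1 rose and 3 fell. On leaving out each KO array in turn, 0 to 2 immediate early genes rose.

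A classical route to immediate early genes runs through CREB, a factor that binds the cAMP response element. That element, TGACGTCA, which reads the same on both strands, was looked for in RefSeq promoters of GRCm38.p6, from 250 bases before to 50 after each start. It was in 1.79% of 32851 promoters and 2.03% of genes. Of the 18 genes that fell, 13 had a promoter and 2 of these held it. Of all measured genes of the list, 26 had a promoter and 3 of these held it. The stretches of the 2 fallen genes are shown because they belong to the group above, with the element in capitals, on the strand of the gene.
Btg2, chr1:134079294-134079341, minus strand: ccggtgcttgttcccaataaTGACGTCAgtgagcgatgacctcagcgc
Dusp1, chr17:26508588-26508635, minus strand: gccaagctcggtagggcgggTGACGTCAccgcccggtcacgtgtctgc
Btg2, an antiproliferative gene, fell from 2.43, 1.66 and 1.86 to 0.981, 0.847 and 0.913 (-1.10 ± 0.16, limma adjusted p = 0.000874), and the Dusp1 values are given above. The element begins at -166 in Btg2 and at -143 in Dusp1, counted from the start. A match describes letters and not a bound site.

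Interferon-stimulated genes, which carry the antiviral program of type I and type II interferons, also fell. Of 31 measured, 15 fell and none rose, with a median change of -0.38, and the number that fell was 10 to 14 on leaving out each KO array in turn. Ifit1, which binds viral RNA, had ratios of 2.18, 1.67 and 1.89 at baseline and 1.01, 1.07 and 0.811 under infusion (-0.99 ± 0.17, limma adjusted p = 0.00292). Gbp2, a guanylate-binding GTPase, had 1.94, 1.98 and 1.76 against 1.00, 1.12 and 0.997 (-0.86 ± 0.11, adjusted p = 0.000425). Each group was tight and the groups did not overlap. Gbp3 fell by 0.81 on the log2 scale, Oasl2 by 0.89, Rtp4 by 0.76 and Usp18, a brake on interferon signalling, by 0.68. Cxcl10, an interferon-induced chemokine, fell from 2.10, 2.94 and 1.90 to 1.43, 1.22 and 0.832 (-1.01 ± 0.20, adjusted p = 0.00635), a call that quantile normalization ended (adjusted p = 0.0642). The immunoproteasome subunit Psmb8 fell by 0.59.

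The interferon-stimulated response element binds the ISGF3 and IRF factors. Its core, GAAANNGAA on either strand, was in 8.56% of the 32851 promoters and 9.76% of genes. Of the 15 genes that fell, 13 had a promoter and 6 of these held the core. Of all measured genes of the list, 25 had a promoter and 14 of these held it. The share was thus lower among the genes that fell, and genes that were not called held it as well. Among the fallen genes that held the core, the stretches of the 4 with the largest falls are shown, with matches on either strand in capitals.
Cxcl10, chr5:92349074-92349122, minus strand: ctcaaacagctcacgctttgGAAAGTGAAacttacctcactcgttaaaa
Ifit1, chr19:34640760-34640833, plus strand: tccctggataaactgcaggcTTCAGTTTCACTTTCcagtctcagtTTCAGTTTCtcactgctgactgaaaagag
Gbp2, chr3:142620585-142620633, plus strand: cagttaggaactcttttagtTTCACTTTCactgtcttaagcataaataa
Gbp3, chr3:142559980-142560034, plus strand: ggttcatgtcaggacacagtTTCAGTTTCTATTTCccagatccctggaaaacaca
Ifit1 held 3 matches and Gbp3 held 2, in each case overlapping in part, while Cxcl10 and Gbp2 held 1. The match in Cxcl10 begins at -213 and that in Gbp2 at -58.

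**Figure D3:**
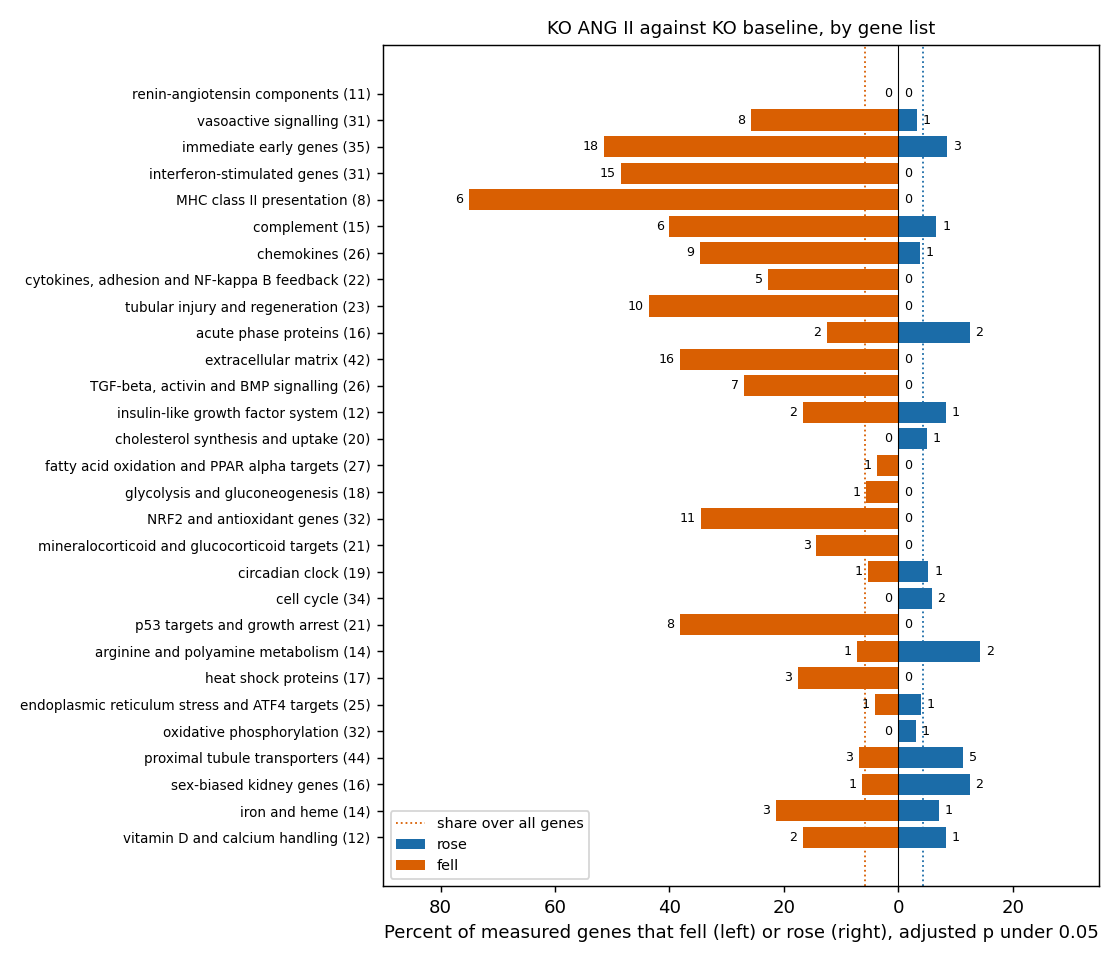
Percent of the measured genes of each pathway list that fell (bars to the left) or rose (bars to the right) in KO ANG II against KO baseline, with the number of genes beside each bar, the list size in parentheses and dotted lines at the shares over all genes. Falls reach 18 of 35 immediate early genes, 15 of 31 interferon-stimulated genes and 6 of 8 MHC class II genes, while no renin-angiotensin gene was called by the 1 probe set that represents each gene here.

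Genes of antigen presentation fell together. Of 8 measured MHC class II genes, 6 fell and none rose, with a median change of -0.995. Cd74, the invariant chain, had ratios of 2.52, 2.14 and 1.94 at baseline and 1.11, 1.01 and 1.00 under infusion (-1.07 ± 0.18, limma adjusted p = 0.00229). H2-Aa, an alpha chain, had 2.73, 2.38 and 1.88 against 1.21, 0.944 and 1.07, and 4 of 4 probe sets fell (-1.10 ± 0.18). Ctss, the protease that trims the invariant chain, had 3.68, 3.15 and 2.34 against 1.30, 0.810 and 1.05 (-1.54 ± 0.22). In all 3 genes the baseline arrays lay above the infused arrays and followed the same order, with replicate 1 highest and replicate 3 lowest.

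Macrophage and dendritic cell markers moved in the same arrays. Of 18 measured, 10 fell and none rose, with a median change of -0.76. Their mean ratio was 1.55 to 2.37 in the KO baseline arrays, 0.915 to 1.18 in the KO ANG II arrays, 0.845 to 1.01 in the WT baseline arrays and 0.747 to 0.847 in the WT ANG II arrays. Lyz2, the lysozyme of myeloid cells, had ratios of 6.33, 5.20 and 3.24 at baseline and 1.58, 0.913 and 0.834 under infusion (-2.16 ± 0.33, limma adjusted p = 0.00146). Cd68, a lysosomal glycoprotein, had 2.68, 2.68 and 1.88 against 1.04, 0.895 and 0.978 (-1.30 ± 0.20). The complement starter genes that macrophages make fell as well, with C1qa at -1.23 ± 0.19, C1qb at -1.35 ± 0.19 and C1qc at -1.17 ± 0.20. In whole kidney fewer cells of a type and less RNA per cell cannot be told apart, and the part of these cells in the falls of other lists was not tested.

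Of 15 measured complement genes 6 fell in all, and only Cfb of the alternative pathway rose (0.50 ± 0.10, limma adjusted p = 0.00642). The other falls were C1ra at -0.91 ± 0.12, C1s1 at -0.89 ± 0.23 and Serping1, the C1 inhibitor, at -1.27 ± 0.28. The C1s1 call was lost without infused array 2 or 3 or baseline array 1 or 2 (adjusted p up to 0.0965) and with quantile normalization (0.0541). That of Serping1 was lost without infused array 3 (0.0581). Among 26 chemokines 9 fell and Ccl28 rose. Cxcl1, which draws neutrophils, had ratios of 4.02, 4.45 and 2.67 at baseline and 1.46, 0.948 and 1.00 under infusion (-1.70 ± 0.20, adjusted p = 0.000294). The monocyte chemokine Ccl9 fell by 1.30 and the T cell chemokine Cxcl9 by 0.83, from 2.04, 1.98 and 1.97 to 0.995, 1.17 and 1.21. The chemokine count was 5 without infused array 3, baseline array 1 or baseline array 2.

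Of 22 measured cytokine, adhesion and NF-kappa B feedback genes, 5 fell and none rose, and no interleukin was among them. Nfkbia, which holds NF-kappa B in the cytoplasm and is itself induced by it, had ratios of 1.45, 1.54 and 1.44 at baseline and 0.870, 0.740 and 0.695 under infusion. The groups were well separated (-0.95 ± 0.10, limma adjusted p = 8.85e-05) and 5 of 5 probe sets fell. Vcam1, an adhesion molecule of activated endothelium and tubule cells, had 2.84, 2.55 and 1.93 against 1.26, 1.09 and 1.26 (-1.004 ± 0.14), with 3 of 3 probe sets. The count was 3 without infused array 2 or 3 or baseline array 2.

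Of the 21 measured genes of the immunoglobulin heavy and light chain families 2 fell and 1 rose. These shares, 9.52% and 4.76%, were near those of all genes (5.73% and 4.28%), and the median change was 0.05. Of 7 B and plasma cell markers only Jchain fell (14.3%, beside 5.73% of all genes). Jchain, the joining chain of IgA and IgM, had ratios of 6.69, 3.72 and 5.09 in the KO baseline arrays and 2.68, 1.38 and 2.13 in the KO ANG II arrays, while the WT arrays lay between 0.240 and 0.622. All 6 KO arrays were above all 6 WT arrays, and infused KO arrays were below baseline KO arrays (-1.34 ± 0.31, limma adjusted p = 0.017). Igha, the IgA heavy chain, had 5.54, 3.21 and 4.64 against 2.52, 1.48 and 2.01, with 3 of 3 probe sets falling (-1.15 ± 0.23). Quantile normalization ended both calls (adjusted p = 0.148 for Jchain and 0.272 for Igha), and that of Jchain was also lost without infused array 2 or baseline array 1 (0.0736 and 0.0668). Probe sets of such closely related genes may share transcripts.

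Extracellular matrix genes fell in 16 of 42 cases and rose in none, with a median change of -0.53. Mgp, an inhibitor of calcification, had ratios of 4.36, 3.28 and 2.16 at baseline and 1.45, 1.11 and 1.18 under infusion (-1.34 ± 0.23, limma adjusted p = 0.00307). Thbs2, a thrombospondin, had 2.82, 2.03 and 1.48 against 1.05, 0.729 and 0.884 (-1.22 ± 0.19), with 3 of 3 probe sets. The groups did not overlap, and baseline replicate 1 was the highest array for both. Enzymes that remodel matrix fell too, with Mmp2 at -0.86 ± 0.11, Mmp14 at -0.59 ± 0.14, the crosslinking enzyme Lox at -1.05 ± 0.18 and the inhibitor Timp2 at -0.98 ± 0.18. Of 42 measured collagen genes 3 fell (7.14%, beside 5.73% of all genes) and 2 rose (4.76%, beside 4.28%). These shares were near the background, and the median change was 0.01. The rises were Col11a2 (0.47 ± 0.10), whose call was kept in all 20 settings, and Col19a1 (0.47). The falls were Col6a1 (-0.74), Col6a2 (-0.54) and Col12a1 (-0.64), and all of these calls were lost without infused array 3 (adjusted p = 0.0978, 0.149 and 0.073) and without baseline array 1 (0.101, 0.153 and 0.076). Those of Col6a1 and Col6a2 were also lost without infused array 2 (0.0964 and 0.121) or baseline array 2 (0.0839 and 0.141), and with quantile normalization (0.136 and 0.108). That of Col6a2 was lost without WT infused array 2 or any 1 of the WT baseline arrays too (0.0509 to 0.0571). The extracellular matrix count was 9 without infused array 3 and 8 and 10 without baseline arrays 1 and 2.

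Fibroblast markers overlapped with this list. Of 11 measured, 4 fell and none rose, with a median change of -0.78, and their mean ratio was 1.29 to 2.56 in the KO baseline arrays and 0.876 to 1.25 in the KO ANG II arrays. Dpt, a dermal and interstitial matrix protein, had ratios of 5.34, 3.19 and 2.20 at baseline and 1.71, 0.820 and 0.963 under infusion (-1.60 ± 0.34, limma adjusted p = 0.00978). baseline array 1 was the highest of all arrays. The fibroblasts count was 2 without baseline array 1 or 2 and 8 without baseline array 3. The part of interstitial cells in the matrix falls was not tested. Growth factors of the TGF-beta, activin and BMP group fell in 7 of 26 cases, with Tgfb1 at -0.66 ± 0.11 (1.58, 1.62 and 1.32 against 1.06, 0.997 and 0.804) and the latent TGF-beta binding protein Ltbp2 at -0.97 ± 0.16. The count of this group was 3 without infused array 3 and 4 without baseline array 1 or 2.

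**Figure D4:**
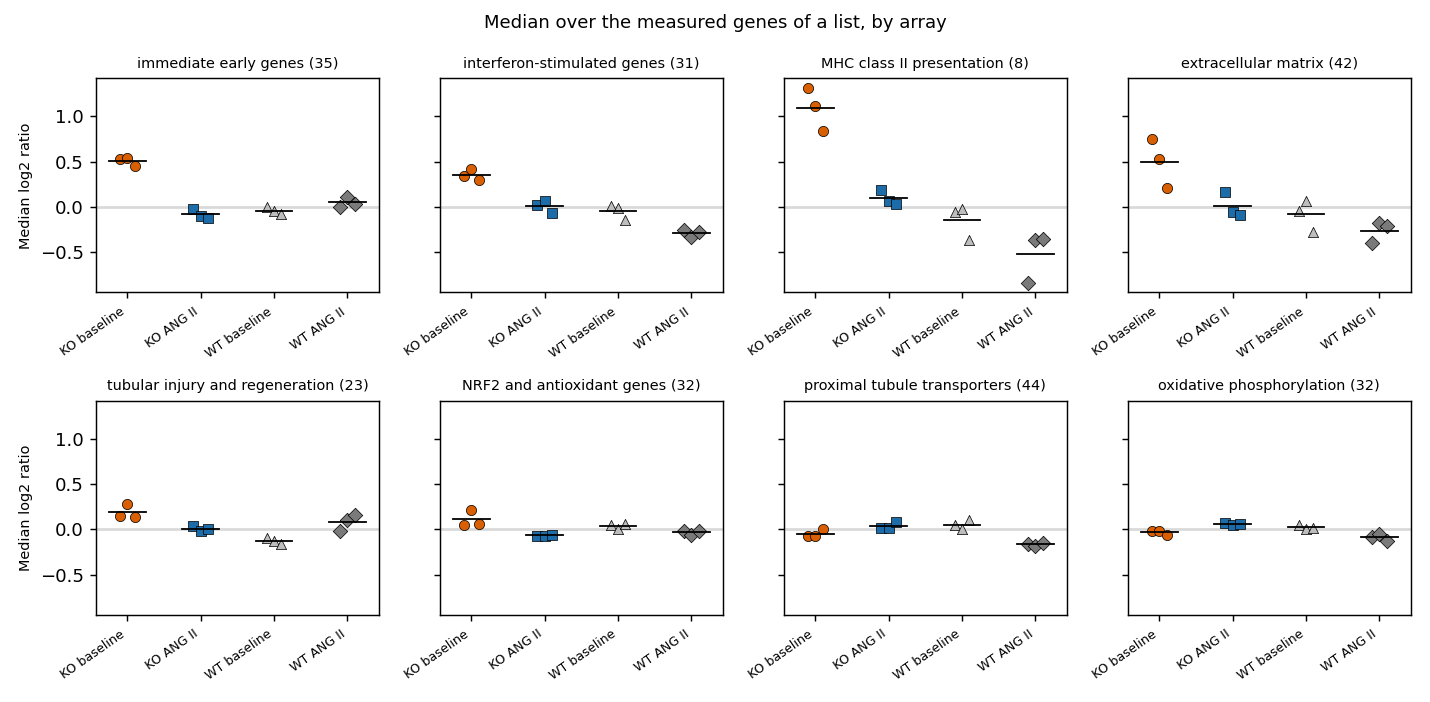
Median log2 ratio over the measured genes of 8 lists, with 1 symbol per array, 3 per group and a bar at the group mean. In all 8 lists the KO baseline arrays do not overlap with the KO ANG II arrays. The same holds for the median over all genes (-0.0247 to -0.0116 in KO baseline, -0.0029 to 0.0115 in KO ANG II). The KO baseline arrays lie lower for proximal tubule transporters and oxidative phosphorylation, which move little, and higher for the other lists.

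Markers of tubular injury and regeneration fell in 10 of 23 cases, with a median change of -0.36, and none rose. The cytokeratins and the intermediate filament vimentin, which injured tubule cells re-express, were among them. Krt18 had ratios of 1.73, 2.32 and 1.64 at baseline and 1.03, 0.946 and 0.730 under infusion (-1.07 ± 0.16, limma adjusted p = 0.00122). Vim had 2.37, 2.30 and 1.55 against 1.22, 1.00 and 1.01, with 3 of 3 probe sets (-0.93 ± 0.16). Krt19 fell by 1.33, a call lost without infused array 2 (adjusted p = 0.0526) or baseline array 2 (0.0576). The tubular injury and regeneration count was 6 without infused array 3 or baseline array 2. Podocyte markers fell in 5 of 10 cases (50%, beside 5.73% of all genes). They were led by Thsd7a at -0.96 ± 0.19, Cdkn1c at -0.78 ± 0.14 and Plce1 at -0.67 ± 0.10. The podocytes count was 3 without infused array 2 or baseline array 1 or 2, and 3 with quantile normalization.

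Genes of the NRF2 and antioxidant defence fell in 11 of 32 cases, with a median change of -0.21. Nqo1, a quinone reductase, had ratios of 1.30, 1.80 and 1.80 at baseline and 0.711, 0.718 and 0.785 under infusion (-1.13 ± 0.13, limma adjusted p = 0.000206). Gsta2, a glutathione transferase, had 0.975, 1.03 and 0.931 against 0.380, 0.396 and 0.514 (-1.20 ± 0.12, adjusted p = 7.49e-05). In Gsta2 the baseline arrays were near the middle of the 12 arrays and the infused arrays were the lowest of all. The WT baseline arrays of Gsta2 lay at 0.993 to 1.22. Of 20 glutathione transferases 5 fell and none rose (3 fell without baseline array 2), and Ugdh and Abcc4 of the same defence fell by 0.66 and 0.83. The NRF2 and antioxidant genes count was 7 without infused array 2 or baseline array 3 and 5 without baseline array 2.

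Growth arrest genes of the p53 pathway fell in 8 of 21 cases and none rose, and Btg2 and the cell cycle inhibitor Cdkn1a (-0.72) were among them. The Cdkn1a call ended in 11 of 20 settings, among them quantile normalization (limma adjusted p = 0.0545). It also ended without infused array 2 or 3 (0.166 and 0.0937), any 1 of the baseline arrays (0.0561 to 0.133), WT infused array 3 (0.0506) or any 1 of the WT baseline arrays (0.0549 to 0.056). This p53 targets and growth arrest count was 2 and 4 without infused arrays 2 and 3, and 3, 3 and 4 without baseline arrays 1, 2 and 3. With quantile normalization it was 4. Of 17 heat shock proteins 3 fell (17.6%, beside 5.73% of all genes). They were the small chaperones Hspb1 (-0.83) and Hspb8 (-0.80) and the constitutive chaperone Hspa8 (-1.18, 1 of 4 probe sets). The list as a whole did not fall, since 11 of the 17 changes were positive and the median was 0.05, beside 0.06 over all genes. Endothelial markers fell in 5 of 16 cases (31.2%, beside 5.73% of all genes). Among them were Vwf, the clotting factor carrier, at -1.23 and Plat, the plasminogen activator, at -0.78. Only Kdr, a receptor for VEGF, rose, by 0.35 (6.25%, beside 4.28% of all genes). The Kdr call was lost without infused array 3 (limma adjusted p = 0.0633) or baseline array 2 (0.0538). The endothelium count was 3 without infused array 2 or 3 or baseline array 2.

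Of 31 measured genes of vasoactive signalling 8 fell (25.8%, beside 5.73% of all genes) and 1 rose (3.23%, beside 4.28%). Regulators of G protein signalling, which shorten signals from receptors such as the angiotensin receptors, made up 3 of the falls. Rgs5, a marker of pericytes, had ratios of 1.78, 1.94 and 1.36 at baseline and 1.06, 0.947 and 0.925 under infusion, with 4 of 4 probe sets falling (-0.78 ± 0.12, limma adjusted p = 0.0019). Rgs4 fell by 0.75, with 1 of 3 probe sets called, and Rgs2 by 0.51, with 3 of 4. Neither gene had overlapping groups. Edn1, the vasoconstrictor endothelin, had 1.82, 1.44 and 1.47 against 1.20, 1.03 and 0.934 (-0.58 ± 0.12, adjusted p = 0.0094). The bradykinin receptor Bdkrb2 rose by 0.44 ± 0.11. The vasoactive signalling count was 5 without infused array 2 or baseline array 1 or 2, and 4 without infused array 3.

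Targets of aldosterone and glucocorticoids were called in 3 of 21 cases, all of them falls (14.3%, beside 5.73% of all genes). The median change of the list was 0.06, the same as over all genes. On leaving out each KO array in turn the number that fell was 1 to 3. The falls were Sgk1, Per1 and Hsd11b2, and the Hsd11b2 call ended in 11 of 19 settings (limma adjusted p up to 0.144). Sgk1, a kinase that raises sodium channel abundance, had ratios of 1.46, 1.39 and 1.20 at baseline and 0.795, 0.666 and 0.767 under infusion (-0.86 ± 0.11, limma adjusted p = 0.000398). The WT groups stood the other way, at 0.642 to 0.801 at baseline and 1.27 to 1.43 under infusion. Per1, a clock gene also driven by steroids, had 1.24, 1.35 and 1.34 against 0.545, 0.900 and 0.869 (-0.80 ± 0.18), a call lost without baseline array 2 (adjusted p = 0.0543). Of 19 clock genes Per1 fell and Rora rose by 0.35, with 1 of 9 probe sets called, and the Rora call was lost without any 1 of the infused arrays or baseline array 1 or 3 (adjusted p = 0.052 to 0.0963). None of the measured thick ascending limb markers was called. Of 12 distal convoluted tubule markers 2 rose (16.7%, beside 4.28% of all genes). They were Pvalb at 0.84 ± 0.13 (0.829, 0.772 and 0.879 against 1.35, 1.35 and 1.79) and the thiazide-sensitive cotransporter Slc12a3 at 0.46 ± 0.12. The call of Slc12a3 was lost without infused array 2 or 3 or any 1 of the baseline arrays (adjusted p up to 0.124).

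Of 347 measured solute carriers 31 rose (8.93%, beside 4.28% of all genes) and 17 fell (4.9%, beside 5.73%). Of 44 proximal tubule transporters 5 rose (11.4%) and 3 fell (6.82%). Slc34a3, a phosphate transporter, had ratios of 0.793, 0.798 and 0.656 at baseline and 1.20, 1.24 and 1.56 under infusion (0.83 ± 0.11, limma adjusted p = 0.000471). Slc39a14, a zinc and iron importer, had 0.975, 0.950 and 0.884 against 1.63, 1.62 and 1.53 (0.77 ± 0.08, adjusted p = 0.000155), with 3 of 4 probe sets. The groups of both genes were well apart. The 3 proximal tubule transporters that fell were Slc7a12, Abcc4 and the export pump Abcc2 (-0.86 ± 0.15). Among the other solute carriers Slc38a3, a glutamine transporter, fell by 1.08 with 1 of 2 probe sets called, and outside these lists the calcium pump Atp2b1 fell by 0.80 with 1 of 3. The proximal tubule transporters that rose numbered 1 without infused array 3, 3, 2 and 2 without baseline arrays 1, 2 and 3, and 3 without any 1 of the WT baseline arrays. The Slc genes that rose numbered 20 and 8 without infused arrays 2 and 3, and 15, 12 and 19 without baseline arrays 1, 2 and 3. Those that fell numbered 11 and 10 without infused arrays 2 and 3, and 8 without baseline array 1 or 2.

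Of 11 measured UDP-glucuronosyltransferases, which conjugate steroids and drugs, 4 rose (36.4%, beside 4.28% of all genes) and none fell. Ugt2a3 had ratios of 0.659, 0.755 and 1.01 at baseline and 1.51, 1.40 and 1.66 under infusion (0.93 ± 0.14, limma adjusted p = 0.00135). Ugt2b5 (0.90 ± 0.20), Ugt2b37 (0.78 ± 0.20) and Ugt2b34 (0.70 ± 0.16) were the others. The Ugt2b37 call was lost without infused array 2 or 3 or baseline array 1 or 2 (adjusted p = 0.0683 to 0.0924) and that of Ugt2b34 without infused array 3 or baseline array 3 (0.0606 and 0.0545). Since these paralogs are near in sequence their probe sets may share transcripts. The Ugt count was 2 without infused array 3. In 16 genes of sex-biased kidney expression, Odc1 and Timd2 rose (12.5%, beside 4.28% of all genes) and Slc7a12 fell (6.25%, beside 5.73%). The change was positive in 14, beside 11181 of all 18193 genes, and the median was 0.36, beside 0.06. The list was not split by the sex with the higher expression, so these values give no direction of sex bias. The sex-biased kidney genes that rose numbered 4 without baseline array 3 or WT infused array 2, and 6 with quantile normalization. Pathways of energy metabolism were near the background, with 1 of 32 oxidative phosphorylation genes rising (Uqcrc2, 0.53 ± 0.07), 1 of 27 fatty acid oxidation genes falling (Pdk4) and 1 of 18 glycolysis genes falling (Aldoa). Among cholesterol genes 1 of 20 rose, and 2 of 34 cell cycle genes rose.

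Agreement among probe sets was used as a check on single probes. Of 4315 genes with 3 or more probe sets, 31 had all of them falling and 6 had all of them rising. The latter were Ccl28, Car3, Odc1, Sel1l, Col19a1 and Fmo5. Sel1l, a component of the endoplasmic reticulum degradation machinery, rose by 0.36 ± 0.08 with 5 of 5 probe sets, a call lost without baseline array 1 (limma adjusted p = 0.0506). The Col19a1 call was lost without infused array 3 or baseline array 2 (adjusted p = 0.0934 and 0.102), and that of Fmo5 without infused array 1 or 3 or baseline array 1 or 2 (0.0797 to 0.109). The 6 largest of the former by median were C1qb, Vim, Igha, Cp, H2-Aa and Vcam1, and Cp, the plasma copper carrier, had 8 of 8 probe sets falling.

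The WT response shared no arrays with the KO response, so genes called in both are counted here by direction. Of the 779 genes that rose in KO, 174 also rose in WT (22.3%), where 9.61% of all genes rose in WT. They were 9.95% of the WT rises, where 4.28% of all genes rose in KO. Of the 1042 that fell in KO, 264 also fell in WT (25.3%), where 14.5% of all genes fell in WT. They were 9.98% of the WT falls, where 5.73% of all genes fell in KO. Neither direction was called in WT for 476 of the KO rises (61.1%) and 716 of the KO falls (68.7%). In WT 24.1% of genes were called in all, and the responses of the genotypes differed for 10.2% of genes (6.95% with the KO response higher, 3.29% lower) and 9.78% of probe sets. The Actb 3' and 5' difference moved with the WT response as well, from at most 0.0069 in the WT baseline arrays to at least 0.0747 in the WT ANG II arrays, and its part in these counts was not tested. Over probe sets, 394 rose in both and 813 fell in both. The number that rose in both was 124 and 132 without infused arrays 2 and 3, 181, 127 and 189 without baseline arrays 1, 2 and 3, and 176 and 220 without WT baseline arrays 1 and 2. The number that fell in both was 505 and 488 without infused arrays 2 and 3, 526 and 499 without baseline arrays 1 and 2, and 507 and 541 without WT baseline arrays 1 and 2.

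Sfxn1 was the largest shared rise, with WT ratios of 0.691, 0.605 and 0.738 at baseline and 1.44, 1.26 and 1.31 under infusion, close to the KO ratios given above. Its difference between the genotypes was not called (limma adjusted p = 0.2). Lhx1, a homeobox factor of nephron development, had KO ratios of 0.590, 0.730 and 0.771 at baseline and 1.08, 1.28 and 1.58 under infusion, and WT ratios of 0.778 to 0.921 and 1.49 to 1.55. It rose by 0.91 ± 0.13 in KO and 0.83 in WT. Mettl1, a tRNA methyltransferase, rose by 0.75 ± 0.11 and 0.83, and Fbp2, a gluconeogenic bisphosphatase, by 0.65 ± 0.13 and 0.68. Among shared falls, Abi3bp, a matrix protein, had KO ratios of 2.98, 3.01 and 1.91 at baseline and 1.16, 0.837 and 0.716 under infusion (-1.54 ± 0.24) and fell by 1.24 in WT, with both probe sets called in KO. Ces1g, a carboxylesterase that hydrolyses lipids, fell in KO from 2.20, 1.83 and 2.88 to 0.673, 0.927 and 1.02 (-1.39 ± 0.26). In WT it fell further, by 3.12, and that difference was called (adjusted p = 0.011). Nipbl and Hspa8 were also among the shared falls, but with 2 of 5 and 1 of 4 probe sets called.

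A further 129 genes rose in KO and fell in WT (16.6% of the KO rises, beside 14.5% of all genes that fell in WT), and 62 fell in KO and rose in WT (5.95% of the KO falls, beside 9.61%). Odc1 stood at 0.951 to 1.20 in the WT baseline arrays and 0.369 to 0.416 in the WT ANG II arrays, so that infusion lowered it with the receptor (-1.42) and raised it without (1.31). The difference of the responses was 2.73 on the log2 scale (limma adjusted p = 1.32e-05). Car3 had WT ratios of 1.63 to 2.04 at baseline and 0.121 to 0.212 under infusion (-3.50), against its rise of 1.11 in KO. Among the genes that fell in KO, Cp had ratios of 1.82, 1.33 and 1.41 at baseline and 0.608, 0.672 and 0.533 under infusion (-1.32 ± 0.19), while the WT arrays went from 0.414 to 0.650 up to 1.41 to 2.27 (1.77). Arg2, a mitochondrial arginase, had 1.83, 1.61 and 1.23 against 0.770, 0.594 and 0.517 in KO (-1.31 ± 0.20) and rose by 1.52 in WT. Pdk4, a brake on glucose oxidation, fell by 1.44 in KO and rose by 1.89 in WT, and its KO call was lost without infused array 2 or 3 (adjusted p = 0.0651 and 0.0513) or baseline array 2 or 3 (0.0596 and 0.0556). In Cp and Arg2 the WT baseline arrays lay in the range of the infused KO arrays or below it.

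**Figure D5:**
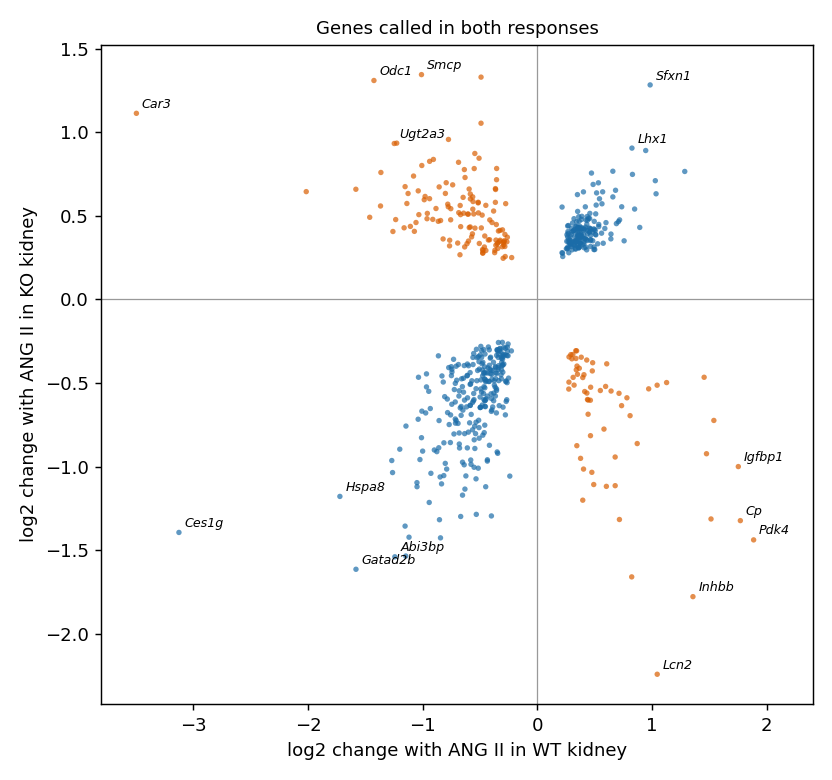
Log2 change with ANG II in WT kidneys (x axis) against that in KO kidneys (y axis) for the 629 genes called in both, with 1 point per gene. Genes that moved the same way lie in the upper right (174) and lower left (264), and those that moved opposite ways in the upper left (129, with Odc1 and Car3) and lower right (62, with Cp and Lcn2).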

How the data were processed

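Affymetrix arrays measured total RNA of 12 mouse kidneys, 3 mice per group per the labels. The deposited values are linear ratios, and RMA is named in the submitters' processing notes. The division by each probe set's median was read from the values themselves, since 45099 of 45101 medians lay within 0.002 of 1, and the remaining 2 probe sets were not divided. No 2 arrays were identical. Log2 of the deposited ratios was taken with no pseudocount, 64 control probe sets were left out, and limma 3.58.1 in R 4.3.3 was fitted to all 12 arrays with 4 group means (8 residual and 5.83 prior degrees of freedom). Adjusted p-values are Benjamini-Hochberg over 45037 probe sets, and the script was tested on simulated data.

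Of these probe sets 34945 had 1 gene symbol, 932 several and 9160 none in the platform annotation. Each of 18193 genes was represented by 1 probe set, a plain one before those marked as shared, then the lowest number. Named genes are the renin-angiotensin genes, the 15 largest rises and falls without overlap, up to 6 called genes per list, the largest shared and opposite changes with WT, genes with all probe sets called, and genes with promoter matches. Jun, Junb, Rhob, Egr3, Egr4, Nr4a2, Rtp4, Usp18, Cfb, Cxcl9, Mmp2, Mmp14, Lox, Timp2 and Bdkrb2 fall outside this rule and were chosen after their values were seen, and neither their calls nor that of Dusp1, named for its promoter, were recomputed singly under other settings. The gene lists and groups were chosen with earlier results of these data known. Each array was left out in turn, and other normalizations and fits were tried.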

Additional observations from a re-analysis of the deposited data

Results flagged for a closer look

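Of the 57 genes chosen by rank, 32 had a response to ANG II that differed between the genotypes by the interaction term (limma, Benjamini-Hochberg adjusted p under 0.05), beside 10.2% of all genes. Some of these genes were chosen for large KO changes or for opposite changes in the genotypes, so their differences describe the choice and are not independent evidence. The values are KO response minus WT response on the log2 scale, and the untreated KO arrays enter both these values and the KO response. The response was higher in KO for Car3 (4.61), Odc1 (2.73), Smcp (2.35), Ugt2a3 (2.18), Proz (2.16), Angptl7 (1.82), Hsd17b11 (1.74), 3110045C21Rik (1.73). It was also higher for Ces1g (1.73), Fmo5 (1.59), Mtmr7 (1.54), Anxa13 (1.39), Akr1c18 (1.35), Pecr (1.27), Ccl28 (1.13), Col19a1 (0.74), Sel1l (0.48). The response was lower in KO for Pdk4 (-3.32), Lcn2 (-3.29), Inhbb (-3.13), Cp (-3.09), Arg2 (-2.83), Igfbp1 (-2.75), D17H6S56E-5 (-2.48). It was also lower for Serpina3n (-2.04), Fos (-1.90), Cxcl1 (-1.82), Igfbp2 (-1.80), Cd44 (-1.79), Lyz2 (-1.66), Vim (-0.82), Vcam1 (-0.81). No explanation of these differences was tested.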

How the results depend on the processing

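The 3 arrays per group limit precision, and signal over background is not known from ratios. Of 228 named genes 209 were called, 107 kept their call under all settings tried (up to 20), 102 lost it under at least 1, and none reversed. With quantile normalization again, 5704 probe sets were called in WT, 2867 for the difference of the responses and 158 rose in both genotypes. With array weights 6962 were called in KO, of which 3095 rose, 674 rose in both, and 384 rose in KO and fell in WT. With 1 probe set per gene 1928 were called in KO (854 rose and 1074 fell), 4493 in WT and 1970 for the difference, with 191 that rose in both, 275 that fell in both, 138 that rose in KO and fell in WT, and 64 that did the opposite; fewer features were tested there. The cause of the other changes was not tested. On leaving out each array in turn, the KO response had 2069 to 5183 called probe sets, 558 to 2041 that rose and 1511 to 3142 that fell, the WT response 5773 to 12277, and the difference 2484 to 5104. In both genotypes 124 to 475 rose and 488 to 815 fell, while 104 to 293 rose in KO and fell in WT and 82 to 164 did the opposite. With the replicate number as a block 4521 probe sets were called in KO (1620 rose and 2901 fell), 11043 in WT and 4276 for the difference, 403 rose in both, 860 fell in both, 240 rose in KO and fell in WT, and 163 did the opposite. Same-numbered KO arrays deviated with correlations of -0.105, -0.157 and -0.0101, so the numbers were not taken as pairs.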
